A study of Mus musculus with 12 samples.

Results

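The comparison described here is that of Western diet with chow in livers labelled Apoa1-/- Apoe-/-, that is, in mice that lacked apolipoprotein A-I and apolipoprotein E and carried no human APOA1 transgene (called DKO below). The liver RNA libraries number 4 for DKO on standard chow and 3 for DKO on a high-fat Western diet, with 22 weeks of feeding in both. All genes with at least 1 FPKM (fragments per kilobase of transcript, scaled to the mapped fragments of the library, so a level per length) in at least 2 of these 7 libraries were taken, which held for 11238 of the 23284 genes in the deposited table. Of these, 17 had a listed value of exactly 0 throughout 1 diet group and were not tested, so 11221 genes were tested. The series also holds 2 chow and 3 Western diet libraries of the same double knockout with a human APOA1 transgene (DKO/hA1, also 22 weeks), which served to estimate the spread between libraries and to set the diet differences side by side. Every group of the study, controls included, lacked the mouse genes Apoa1 and Apoe on the labels, so no group shows the diet effect in a wild-type liver. Age, sex, strain, the composition of the diets, and the promoter of the transgene are not given in the sources used here. The labels number the libraries within a group without saying more about how they were obtained, so the p-values below measure the spread between these libraries.

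The liver takes up dietary cholesterol from lipoprotein remnants, exports it in new lipoproteins or bile, and lowers its own synthesis when sterol accumulates. Apolipoprotein E directs remnant uptake, apolipoprotein A-I forms the backbone of HDL particles, and mice without apolipoprotein E accumulate cholesterol-rich remnants in plasma and develop atherosclerosis, above all on a Western diet. Hepatocytes also answer interleukin-1 and interleukin-6 with the acute-phase response, a large rise in secreted defence proteins such as serum amyloid A that is commonly accompanied by lower expression of drug-metabolising enzymes.

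In the 7 libraries the FPKM values summed to 399039 to 578927. The 10 most abundant genes held 14.6 to 16.5% of that total in the chow libraries, and 14.2, 29.3 and 20.6% in Western diet replicates 1, 2 and 3. Correlations of log2 levels across genes were 0.949 to 0.975 within chow, 0.955 to 0.968 within Western diet and 0.931 to 0.962 between the diets, so the ranges overlapped. The first principal component held 38.1% of the variance, with the chow libraries between -24.5 and -12.1 and the Western diet libraries between 11.95 and 37.1. On the second (21.4%), chow replicate 2 (32.5) and chow replicate 4 (-25.5) lay farthest apart. The liver markers were present in all 7 libraries (summed level of at least 11150 FPKM for the 12 hepatocyte markers), except that albumin, the main plasma protein, was listed at 0 in all 4 chow libraries and at 13190, 8424 and 23640 FPKM in the Western diet libraries. A zero for albumin in liver cannot be read as a level, and Alb was not tested. The number of fragments per library is not given in the table, so no counting interval is given.

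Apoa1 and Apoe, the genes that define the genotype, were above 0 in all 7 libraries. Apoa1 stood at 38.1, 30.4, 46.1 and 47.0 FPKM on chow and at 40.2, 60.6 and 77.4 on Western diet, and the groups overlapped. Its log2 difference, Western diet minus chow, was 0.45 ± 0.26 (SE; adjusted p = 0.52). Apoe stood at 30.0, 47.2, 38.5 and 47.5 FPKM on chow and at 89.8, 25.7 and 26.8 on Western diet, with a difference of -0.09 ± 0.47 (adjusted p = 0.97). Gene-level FPKM do not tell a remnant of a disrupted transcript from an intact one.

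Few genes passed the adjusted threshold for a diet difference, and a gene that did not pass is not thereby shown to be unchanged. With limma's moderated test on log2(scaled FPKM + 1) and a Benjamini-Hochberg adjusted p below 0.05 over the 11221 genes, 15 genes were called (0.134%), of which 8 were higher on Western diet (0.0713%) and 7 lower (0.0624%). Before adjustment 1320 genes (11.8%) had a p below 0.05. Ccl6, Wfdc2, Extl1, Uap1l1 and Cldn2 were among those that rose, and Slco1a4, Ugt1a9, Cyp3a44, Hsd17b6, Cyp3a16, Raet1e and Gpr110 fell. The called genes also included a small RNA gene and Rpl31-ps12, a ribosomal pseudogene. When the libraries were instead scaled to equal totals, which shifted the median difference of all genes from -0.01 to -0.20, the calls split into 6 higher and 12 lower. The median of all genes stayed within 0.06 of 0 under the other scalings, and differences below are read against the first of these medians. Leaving out 1 library moved the count most for DKO Western diet replicate 1 (47 called) and DKO/hA1 Western diet replicate 3 (66 called). In the fit of the 7 libraries alone 19 genes (0.169%) were called, 9 of them called in both fits.

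**Figure D1:**
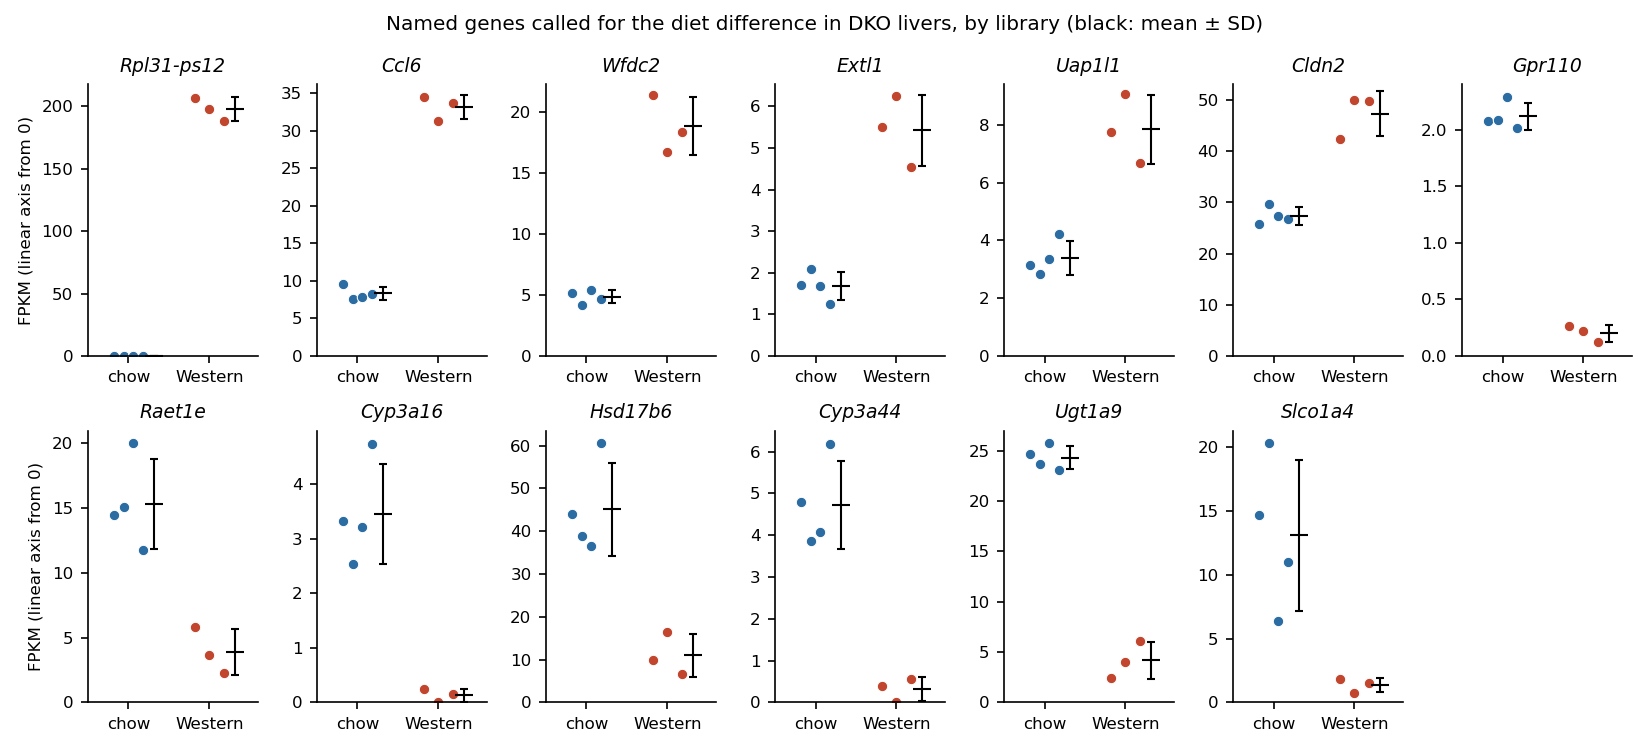
FPKM by library on linear axes from 0 for 13 of the genes called for the diet difference, with 4 DKO chow libraries (blue), 3 DKO Western diet libraries (red), and the mean ± SD in black, cut off at 0. In each panel the diets do not overlap. The spread within a diet is narrow for Ccl6, Gpr110 and Ugt1a9 and wide for Slco1a4 on chow.

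Among the genes that rose, Ccl6 (chromosome 11, 83587886 to 83593087, mm10), a CC chemokine made by macrophages and other myeloid cells, was called in every fit tried. Its levels were 9.56, 7.64, 7.80 and 8.26 FPKM on chow and 34.5, 31.3 and 33.6 on Western diet. All Western diet libraries lay well above all chow libraries, and the mean rose 3.98-fold (log2 difference 1.81 ± 0.19, adjusted p = 0.002). Wfdc2 (chromosome 2, 164562715 to 164568510), a secreted protein of the whey acidic protein family, was at 5.15, 4.17, 5.38 and 4.68 FPKM on chow and at 21.4, 16.7 and 18.4 on Western diet (1.70 ± 0.21, adjusted p = 0.0073). Extl1, a glycosyltransferase of the exostosin family, was at 1.70, 2.08, 1.69 and 1.26 FPKM on chow and 5.49, 6.24 and 4.55 on Western diet (1.21 ± 0.15, adjusted p = 0.0059). Both were low on chow, and in both every Western diet library lay above every chow library. Uap1l1, a relative of the enzyme that makes UDP-N-acetylglucosamine, rose from 3.39 ± 0.592 to 7.84 ± 1.20 FPKM (SD, n = 4 and 3; 0.95 ± 0.15, adjusted p = 0.032). Cldn2, a tight-junction protein that forms paracellular cation pores, rose from 27.3 ± 1.67 to 47.3 ± 4.38 FPKM (0.70 ± 0.11, adjusted p = 0.031). In alternative fits Ccl6, Wfdc2 and Extl1 kept their call throughout, whereas Cldn2 was called in 12 of 23 and Uap1l1 in 11 of 23.

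The largest called difference was that of Rpl31-ps12, which was near 0 in every chow library of both genotypes. This processed pseudogene of the ribosomal protein gene Rpl31 was at 0, 0, 0 and 0.188 FPKM on chow and at 207, 198 and 188 on Western diet. In the DKO/hA1 libraries it was at 0 in both chow and at 183 to 249.7 in the 3 Western diet libraries. Rpl31 itself, looked up after these values were seen, was at 56.8, 31.9, 59.4 and 53.1 FPKM on chow and at 22.2, 27.1 and 22.3 on Western diet (-1.08 ± 0.18, adjusted p = 0.058). The sequences are near copies, between which the authors' fragments could be divided, so neither difference is read as a change in ribosomal protein expression. Levels of other genes in families of near copies (Cyp3a, Saa, Mup, and the Ugt1a transcripts, which share exons) carry the same uncertainty. Zeros throughout a group were not confined to such families. Like Alb, the ribosomal RNA precursor gene Rn45s was at 0 in every DKO chow library. It was at 589.9, 189.5 and 579.9 FPKM on DKO Western diet, and at 179.7 and 166 in DKO/hA1 chow. Whether genes were quantified alike in all groups was not tested, and such a difference cannot be told apart from diet here.

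The 7 genes that fell were transporters, enzymes and surface proteins. Ugt1a9 (chromosome 1, 88070779 to 88220002), a glucuronosyltransferase that makes drugs, bilirubin-like compounds and fatty acids water-soluble, was at 24.6, 23.7, 25.8 and 23.1 FPKM on chow and at 2.40, 4.05 and 6.10 on Western diet. Its mean was 5.81-fold lower (-2.41 ± 0.22, adjusted p = 0.00079), and the chow libraries lay close together. Slco1a4, an uptake transporter for organic anions and bile acids, was at 14.7, 20.3, 6.35 and 11.03 FPKM on chow and at 1.82, 0.765 and 1.501 on Western diet (-2.55 ± 0.38, adjusted p = 0.032). Here the chow libraries spread widely without reaching the Western diet libraries. Cyp3a44 and Cyp3a16, cytochrome P450 genes of a family that oxidises steroids and drugs, were low on chow (3.85 to 6.18 and 2.54 to 4.74 FPKM). On Western diet Cyp3a44 was at 0.391, 0.0113 and 0.564 FPKM (-2.15 ± 0.22, adjusted p = 0.002) and Cyp3a16 at 0.239, 0.0029 and 0.149 (-1.99 ± 0.22, adjusted p = 0.0023), lowest in replicate 2 for both. Since 1 is added before the log2, these differences are smaller than the ratio of the means, and with 0.1 added they were -3.90 and -4.13. Hsd17b6, which oxidises androgens and retinol, was at 44.1, 39.0, 36.6 and 60.7 FPKM on chow and at 9.99, 16.5 and 6.62 on Western diet (-2.06 ± 0.31, adjusted p = 0.032). Raet1e, a ligand of the activating lymphocyte receptor NKG2D, was at 14.5, 15.1, 20.1 and 11.7 FPKM against 5.81, 3.66 and 2.24 (-1.84 ± 0.24, adjusted p = 0.0088). Its neighbour Raet1d on chromosome 10, a gene of the same ligand family, was at 28.6, 28.2, 31.2 and 21.1 FPKM against 13.1, 7.61 and 1.59 and did not pass (-2.10 ± 0.46, adjusted p = 0.15). Gpr110 (RefSeq symbol Adgrf1), an adhesion G protein-coupled receptor, was at 2.08, 2.09, 2.29 and 2.01 FPKM on chow and at 0.263, 0.225 and 0.119 on Western diet (-1.40 ± 0.11, adjusted p = 0.00024, and -2.96 with 0.1 added). Ugt1a9, Gpr110 and both Cyp3a genes were called in every fit tried that tested them, Raet1e in 20 of 23, Slco1a4 in 13 of 23 and Hsd17b6 in 12 of 23.

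**Figure D2:**
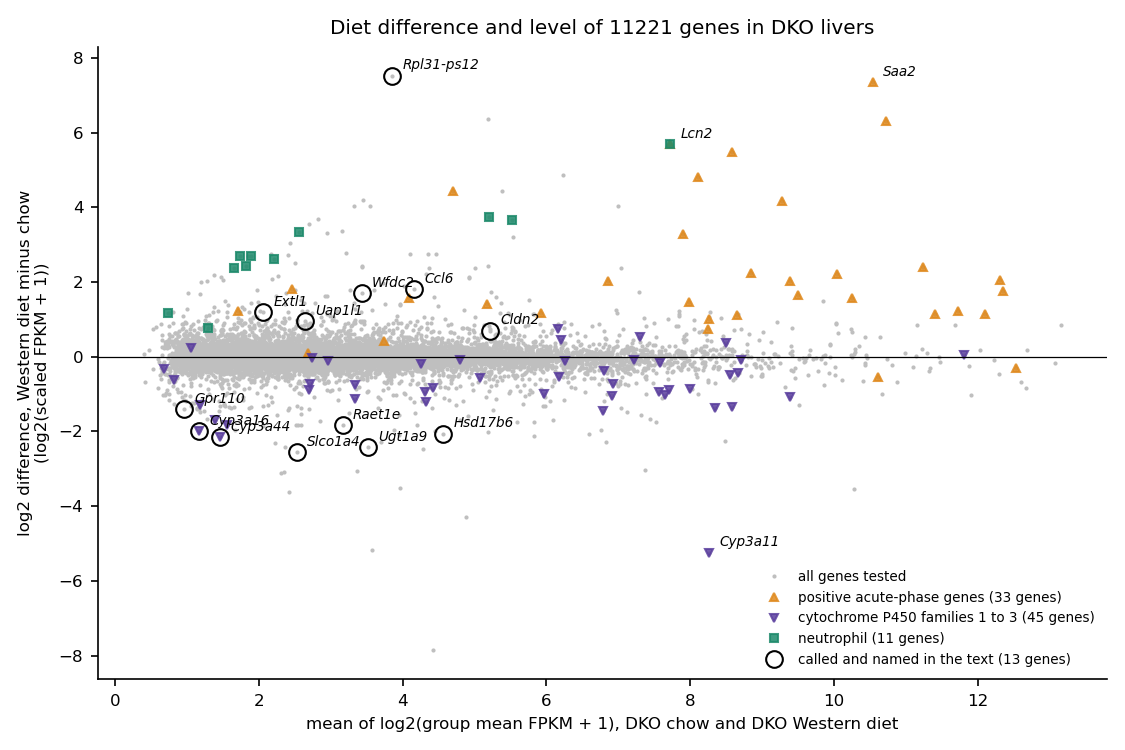
Diet difference (log2, Western diet minus chow) against mean level for the 11221 tested genes, with acute-phase genes, P450 genes and neutrophil markers marked and the 13 called genes that are named circled. The largest differences among abundant genes, such as Saa2 (7.36) and Cyp3a11 (-5.25), are not circled, while most circled genes have low to middle levels.

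Many larger differences did not pass, and in the genes that showed them the Western diet libraries often lay far apart. In 1413 genes (12.6%) the scaled levels of the 3 Western diet libraries did not overlap those of the 4 chow libraries, 804 above (7.17%) and 609 below (5.43%), and 315 genes (2.81%) differed at least 2-fold. The difference was positive in 48.7% of all genes tested and negative in 51.3%. Counts of such genes in the groups below are to be read against these shares, and the groups' medians against -0.01, the median of all genes tested. With equal totals medians lie about 0.20 lower, so the sign of a median between 0 and 0.20 depends on the scaling.

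Cholesterol synthesis was lower in 1 Western diet library above all. All 10 genes of the mevalonate arm, which builds squalene from acetyl-CoA, had a negative difference (median -0.82). None was called, and in 1 of them, Idi1, the groups did not overlap. Idi1, the isomerase that starts isoprenoid chain growth, was at 52.1, 96.8, 79.7 and 81.7 FPKM on chow and at 7.80, 41.1 and 36.6 on Western diet (-1.74 ± 0.58, adjusted p = 0.30). Western diet replicate 1 was the lowest library. Of the 11 genes of the post-squalene arm, 9 had a negative difference (median -0.83), 5 without overlap, and none was called. Sqle, which commits squalene to sterols, was at 26.1, 30.2, 20.7 and 31.3 FPKM on chow and at 1.71, 21.7 and 22.0 on Western diet (-1.37 ± 0.88, adjusted p = 0.58). Cyp51, the lanosterol demethylase, was at 28.7, 39.5, 36.4 and 41.5 against 5.52, 25.9 and 22.3 (-1.28 ± 0.52, adjusted p = 0.37). The mean log2 level over the mevalonate arm was 4.71 to 5.31 in the chow libraries and 3.32, 4.74 and 4.64 in Western diet replicates 1, 2 and 3. Without Western diet replicate 1 the median was -0.23 for the mevalonate arm and -0.48 for the post-squalene arm. It was -1.13 for the mevalonate arm without replicate 3, and -1.01 for the post-squalene arm without replicate 2.

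The stretches before the transcription starts of 3 sterol-synthesis genes show letters that these genes share. The 250 bases before the first listed start of each gene are given 5′ to 3′ on the gene's strand, from RefSeq on GRCm38.p6, the assembly of mm10. The bases after the listed start were found near the beginning of a GENCODE transcript for Idi1 and Cyp51, but not for Hmgcs1. Capitals mark CCAAT, a box bound by nuclear factor Y, and TCACCCCAC, a sterol-element sequence bound by the SREBP factors, searched on both strands.
Idi1 (chr13:8885356-8885605, plus strand): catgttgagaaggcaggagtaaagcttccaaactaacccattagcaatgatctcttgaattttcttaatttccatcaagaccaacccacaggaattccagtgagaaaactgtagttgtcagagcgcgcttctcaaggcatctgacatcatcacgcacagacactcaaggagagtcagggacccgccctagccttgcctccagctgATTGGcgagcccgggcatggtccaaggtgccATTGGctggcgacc
Hmgcs1 (chr13:119690101-119690350, plus strand): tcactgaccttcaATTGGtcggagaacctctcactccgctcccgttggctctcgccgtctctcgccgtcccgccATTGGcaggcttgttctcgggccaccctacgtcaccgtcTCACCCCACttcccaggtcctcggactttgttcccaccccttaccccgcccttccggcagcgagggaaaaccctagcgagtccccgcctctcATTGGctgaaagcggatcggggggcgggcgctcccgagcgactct
Cyp51 (chr5:4104698-4104947, minus strand): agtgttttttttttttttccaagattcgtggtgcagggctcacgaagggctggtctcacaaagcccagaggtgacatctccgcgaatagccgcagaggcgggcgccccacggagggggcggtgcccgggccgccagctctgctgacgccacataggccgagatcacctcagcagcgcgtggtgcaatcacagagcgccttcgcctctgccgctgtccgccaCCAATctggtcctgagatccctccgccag
CCAAT or its complement was found in 6 of 7 mevalonate genes (85.7%) and 8 of 9 post-squalene genes (88.9%) with an entry, and in 9314 of 27025 genes (34.5%) in the RefSeq table. TCACCCCAC was found in 1 of the 7, in none of the 9, and in 0.466% of all. A match is a string of letters and not a tested binding site, and a window without one says nothing of the factor.

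Regulators of sterol supply showed no shared direction. In the group of SREBP2 control and LDL uptake, 5 of 12 genes had a positive and 7 a negative difference (median -0.15), and none was called. Srebf2, the transcription factor of the pathway, was at 10.01 to 15.27 FPKM on chow and 8.29 to 14.5 on Western diet. The sterol carrier Stard4 was at 28.4, 36.1, 21.5 and 22.9 FPKM on chow and 8.78, 15.2 and 12.4 on Western diet without overlap (-1.17 ± 0.24, adjusted p = 0.14).

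Sterol export genes that the oxysterol receptor LXR controls lay higher on Western diet without being called. Of 10 such genes, 9 had a positive difference (median 0.51) and 7 did not overlap. Abcg5, which with Abcg8 pumps cholesterol into bile, was at 44.3, 36.4, 28.3 and 32.9 FPKM on chow and at 124, 65.5 and 69.6 on Western diet (1.15 ± 0.26, adjusted p = 0.15). Abcg8 was at 28.9, 25.9, 23.9 and 26.6 against 73.8, 35.6 and 39.6 (0.75 ± 0.28, adjusted p = 0.33). Replicate 1, the library lowest in cholesterol synthesis, was the highest of the Western diet libraries for both. Pltp, which moves phospholipid between lipoproteins, was at 29.6, 10.7, 25.1 and 31.2 FPKM against 83.2, 56.6 and 61.1 (1.45 ± 0.33, adjusted p = 0.15). Abca1, the cholesterol exporter that loads apolipoprotein A-I, was at 18.9 to 21.9 FPKM on chow and 27.1 to 31.8 on Western diet (0.45 ± 0.14, adjusted p = 0.26). Scarb1, the HDL receptor, was at 54.4 to 69.3 and 88.4 to 114 (0.58 ± 0.12, adjusted p = 0.15). The median of the group stayed between 0.41 and 0.56 when each of the 7 libraries was left out in turn.

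Genes of lipoprotein assembly showed no shared direction, with 10 of 22 positive (median -0.06) and none called. Apob, the structural protein of very-low-density lipoprotein, was at 352 to 444 FPKM on chow and 355 to 406 on Western diet, and Mttp, which loads it with lipid, at 73.2 to 83.7 and 64.2 to 86.2. Apoc2, the activator of lipoprotein lipase, was at 249 to 316 and 417 to 475 without overlap (0.56 ± 0.18, adjusted p = 0.28). Among 17 fatty acid synthesis genes 8 were positive (median -0.01) and none was called. Srebf1, the lipogenic transcription factor, was at 53.1, 69.2, 36.3 and 71.9 FPKM against 132, 76.2 and 125 (0.87 ± 0.36, adjusted p = 0.38). Scd2, a fatty acid desaturase, was at 1.92 to 2.80 and 4.63 to 6.32 (0.88 ± 0.20, adjusted p = 0.15). Both were without overlap, unlike the synthase gene Fasn (28.6 to 54.7 FPKM on chow, 22.6, 31.6 and 108 on Western diet) and the main liver desaturase Scd1 (521, 542, 603 and 254 against 1390, 516 and 3396). Elovl3, an elongase with a daily rhythm, differed within chow, at 34.0, 67.2, 424 and 434 FPKM in replicates 1 to 4.

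In triglyceride assembly and lipid droplets 10 of 25 tested genes were positive (median -0.09). The fatty acid uptake protein Cd36 was at 8.85 to 14.9 FPKM on chow and 18.9 to 32.8 on Western diet (0.75 ± 0.22, adjusted p = 0.24), and the droplet coat protein Plin2 at 130 to 263 and 133 to 228. Fabp1, the abundant fatty acid binding protein of hepatocytes, was at 4074 to 5890 FPKM and 1257 to 3808 without overlap (-1.03 ± 0.62, adjusted p = 0.54). Fatty acid oxidation and PPARalpha targets had 32 tested genes, of which 12 were positive (median -0.06). In none of the 32 were the groups without overlap. Their mean log2 level was 5.32 to 5.49 on chow and 5.27, 4.72 and 6.03 in Western diet replicates 1, 2 and 3. The median ran from -0.26 without Western diet replicate 3 to 0.12 without Western diet replicate 2. Cpt1a, the entry step of mitochondrial oxidation, was at 74.1 to 140 FPKM on chow and 104 to 108 on Western diet.

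Glucose metabolism showed no shared direction. Of 16 glycolysis and glucose uptake genes 9 were positive (median 0.04), 1 was called, and 2 were above chow without overlap. Without overlap and not called was Ldha, lactate dehydrogenase, at 350 to 441 FPKM on chow and 530 to 764 on Western diet (0.67 ± 0.16, adjusted p = 0.16). The glucose transporter Slc2a2 was at 103, 108, 60.8 and 71.1 against 66.9, 36.9 and 29.6 with overlap (-1.04 ± 0.59, adjusted p = 0.52). The 12 gluconeogenesis genes had a median of 0.00 and none without overlap. G6pc, glucose-6-phosphatase, was at 80.8, 175, 230 and 193 FPKM against 87.1, 64.0 and 97.5, and Pck1, the rate-limiting enzyme, at 709 to 1620 against 500 to 1054.

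Bile acid synthesis and its FXR control had 5 of 16 genes positive (median -0.12), with none called. Cyp7a1, the rate-limiting enzyme, varied widely within chow, at 52.1, 155, 10.6 and 7.31 FPKM, and stood at 24.4, 41.2 and 41.8 on Western diet. Cyp8b1, which makes cholic acid, was at 131 to 179 FPKM on chow and at 117, 31.7 and 88.2 on Western diet (-1.20 ± 0.73, adjusted p = 0.56). Among 16 transporters of bile acids and organic anions 12 were negative (median -0.27), 4 without overlap below chow, and Slco1a4 was called. Slco1a1, another organic anion carrier, was at 94.6, 140, 98.0 and 108 FPKM on chow and at 71.7, 30.9 and 18.9 on Western diet (-1.68 ± 0.64, adjusted p = 0.36). Slco2a1, the prostaglandin transporter, was at 12.8 to 21.3 FPKM on chow and 6.68 to 8.74 on Western diet (-1.07 ± 0.19, adjusted p = 0.088). Slc10a1, which takes up bile acids from blood, was at 261 to 362 and 239 to 256 (-0.33 ± 0.25, adjusted p = 0.65), and Abcb11, which pumps them into bile, at 95.1 to 155 and 95.1 to 103.

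Drug-metabolising enzymes lay below chow in many members. Of 45 tested cytochrome P450 genes of families 1 to 3, 39 had a negative difference (median -0.74), 23 were below chow without overlap, and 2 were called, Cyp3a44 and Cyp3a16. Cyp3a11, the main drug-oxidising P450 of mouse liver, was at 1320, 1058, 1153 and 1802 FPKM on chow and at 113, 3.497 and 90.7 on Western diet (-5.25 ± 1.06, adjusted p = 0.15). Every chow library lay far above every Western diet library, and replicate 2 lay far below the other Western diet libraries. Cyp2c67, an arachidonic acid epoxygenase, was at 124 to 238 FPKM and 44.3 to 109 (-1.44 ± 0.31, adjusted p = 0.15). Cyp2e1, the ethanol-inducible P450, was at 2565 to 4515 FPKM on chow and 3311 to 4041 on Western diet and overlapped. Nr1i2 and Nr1i3, the xenobiotic receptors PXR and CAR that switch on many of these genes, were at 22.8 to 28.7 against 25.04 to 28.97 FPKM and at 53.6 to 90.5 against 49.5 to 106.

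The share of members below chow varied between P450 families. In the Cyp3a family 8 of 9 tested genes were below chow without overlap (median -1.69, 2 called), and in the Cyp2c family 7 of 13 (median -1.01). All 4 Cyp2a genes were negative (median -0.87, 2 without overlap), and 8 of 9 Cyp2d genes (median -0.42, 5 without overlap). The Cyp4a family of fatty acid hydroxylases had a median of -0.14 over 6 genes. The family's summed level was 167.7 to 292.9 FPKM on chow and 138.4, 33.77 and 822.5 in Western diet replicates 1, 2 and 3, on both sides of chow. Its Cyp4a12a, which is higher in male livers, was at 68.5, 73.8, 87.9 and 128 FPKM on chow and 68.7, 10.8 and 24.8 on Western diet.

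**Figure D3:**
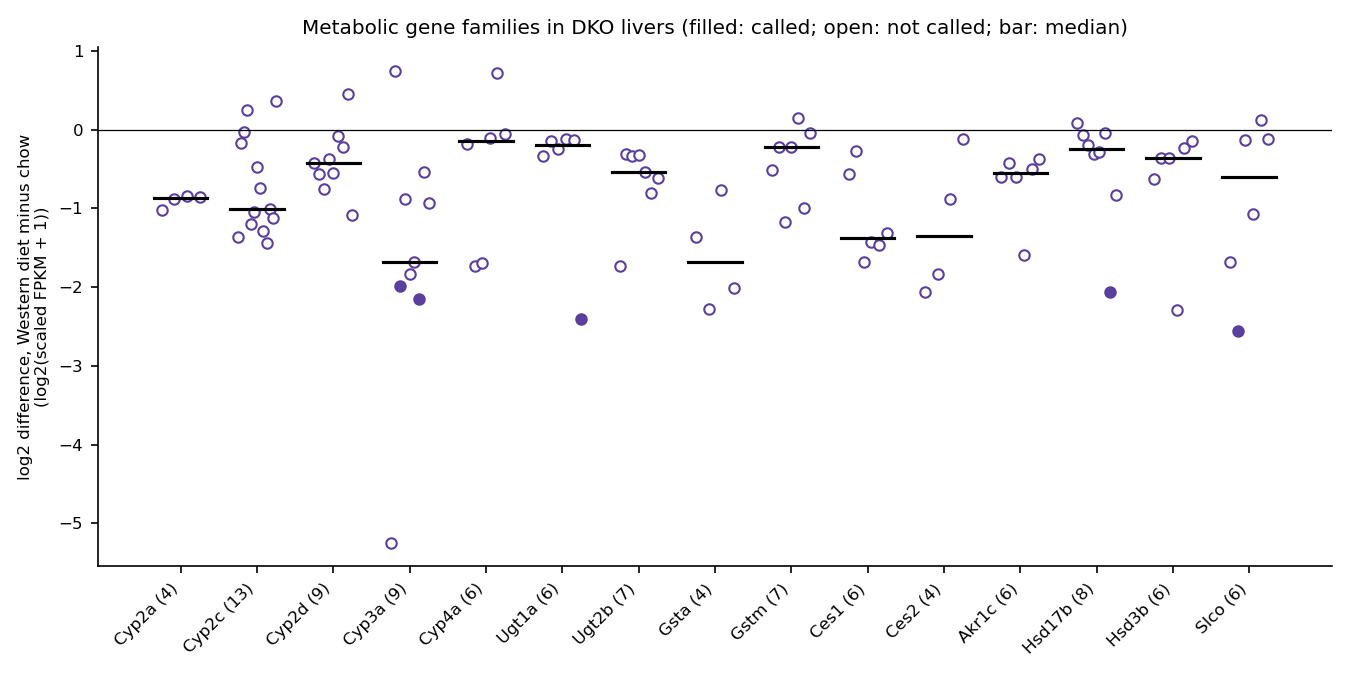
Diet difference (log2, Western diet minus chow) of every tested gene in 15 metabolic gene families, with the number tested in brackets. Filled points are called genes (Cyp3a16, Cyp3a44, Ugt1a9, Hsd17b6 and Slco1a4), open points are not called, and bars are medians. Nearly all points lie below 0, and the lowest is Cyp3a11 at -5.25.

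Conjugating enzymes had 36 of 42 tested genes negative (median -0.39), with 11 below chow without overlap and Ugt1a9 called. In the Ugt1a family Ugt1a9 stood apart, since the other 5 tested genes lay between -0.34 and -0.12, while all 7 Ugt2b genes were negative (median -0.54). The glutathione transferases of the alpha class had a median of -1.69 over 4 genes. Gsta2 was at 21.4, 20.1, 20.2 and 33.2 FPKM on chow and at 9.47, 0.642 and 7.25 on Western diet (-2.27 ± 0.53, adjusted p = 0.16), and Gsta4, which detoxifies lipid peroxidation products, at 53.3 to 86.4 against 5.11 to 26.7 (-2.01 ± 0.58, adjusted p = 0.24). The mu class had a median of -0.22 over 7 genes, and Gstm1 was at 390, 141 and 980 FPKM in the Western diet libraries, on both sides of chow (399 to 612). Carboxylesterases hydrolyse ester drugs and lipids. Ces2a was at 195, 144, 188 and 202 FPKM on chow and at 75.2, 21.9 and 53.1 on Western diet (-2.06 ± 0.53, adjusted p = 0.19), and Ces1f at 169 to 211 against 137, 17.8 and 146 (-1.47 ± 0.82, adjusted p = 0.52). All 12 tested carboxylesterases were negative, 6 of them below chow without overlap. The 4 tested flavin monooxygenases, which oxidise nitrogen and sulfur in drugs, lay between -0.02 and 0.29 (median 0.20), all with overlap. The list that joins both had a median of -0.58. NRF2 targets, the antioxidant group that shares some of these genes, had 8 of 18 positive (median -0.02). Among them the quinone reductase gene Nqo1 was at 2.12 to 3.44 FPKM on chow and 1.93 to 5.81 on Western diet. Western diet replicate 2 was the lowest of the 7 libraries for the P450 list, the conjugating enzymes and the joined list of monooxygenases and esterases, and without it the medians were -0.50, -0.13 and -0.41. For conjugating enzymes the median was -0.64 without replicate 3.

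Steroid-metabolising and sex-biased liver genes had negative medians, with many members overlapping chow. Of 20 steroid dehydrogenases and reductases 19 were negative (median -0.40, and -0.63 without Western diet replicate 1), 7 without overlap, and Hsd17b6 was called. Srd5a1, a steroid 5-alpha reductase, was at 31.9 to 37.6 FPKM on chow and 11.9 to 22.5 on Western diet (-1.15 ± 0.30, adjusted p = 0.19), and Hsd11b1, which regenerates active glucocorticoid, at 271 to 380 and 125 to 251 (-0.86 ± 0.23, adjusted p = 0.21). Genes that are higher in male livers had 14 of 16 negative (median -0.96) and genes that are higher in female livers 9 of 14 (median -0.98), with 8 and 7 below chow without overlap. Selenbp2, of the male-biased group, was at 615, 465, 970 and 719 FPKM on chow and at 368, 106 and 79.6 on Western diet (-2.26 ± 0.55, adjusted p = 0.17). Hsd3b5, a male-specific reductase of steroids, was at 130, 123, 209 and 175 FPKM on chow and at 173, 63.6 and 2.35 on Western diet, where replicate 1 lay within chow and replicate 3 far below. All 4 called genes of the female-biased group, Slco1a4, Cyp3a44, Cyp3a16 and Gpr110, fell. Against that direction, Cyp17a1, which makes androgen precursors, was at 3.35, 3.17, 1.61 and 0.333 FPKM on chow and at 4.58, 44.8 and 30.6 on Western diet (2.77 ± 1.10, adjusted p = 0.37).

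Acute-phase genes held the largest upward differences among the genes not called that are named here. Of 33 tested genes 31 were positive (median 1.66) and 27 lay above chow without overlap. Saa2, a serum amyloid A that replaces apolipoprotein A-I on HDL in inflammation, was at 112, 148, 55.1 and 69.7 FPKM on chow and at 4021, 42630 and 21990 on Western diet (7.36 ± 1.49, adjusted p = 0.15; 0.044 in the fit of the 7 libraries alone). Saa1 was at 240, 253, 74.3 and 97.3 FPKM against 3693, 32500 and 15420 (6.32 ± 1.37, adjusted p = 0.15). For both genes every Western diet library lay far above every chow library, but replicate 1 lay far below the other Western diet libraries. Orm2, an acid glycoprotein of plasma, was at 112, 58.0, 19.5 and 19.4 FPKM against 489, 4288 and 3471 (5.499 ± 1.38, adjusted p = 0.20). Lcn2, which starves bacteria of iron and is made by hepatocytes and neutrophils, was at 65.5, 20.1, 8.70 and 13.2 against 401, 3222 and 1132 (5.69 ± 1.33, adjusted p = 0.17). The metallothionein Mt2, a zinc-binding protein, was at 157, 36.6, 24.1 and 7.47 FPKM against 278, 1953 and 1778 (4.81 ± 1.55, adjusted p = 0.30). For Mt1, chow replicate 1 (462 FPKM) nearly reached Western diet replicate 1 (479), while the others lay at 27.6 to 84.9 on chow and at 3032 and 3676 on Western diet. The fibrinogen chain Fgb was at 2240 to 3561 FPKM and 3866 to 9614 (1.16 ± 0.48, adjusted p = 0.38). The mean log2 level over the 33 positive acute-phase genes was 6.59 to 7.60 on chow, highest in replicate 1, and 8.42, 9.98 and 9.51 on Western diet, lowest in replicate 1.

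**Figure D4:**
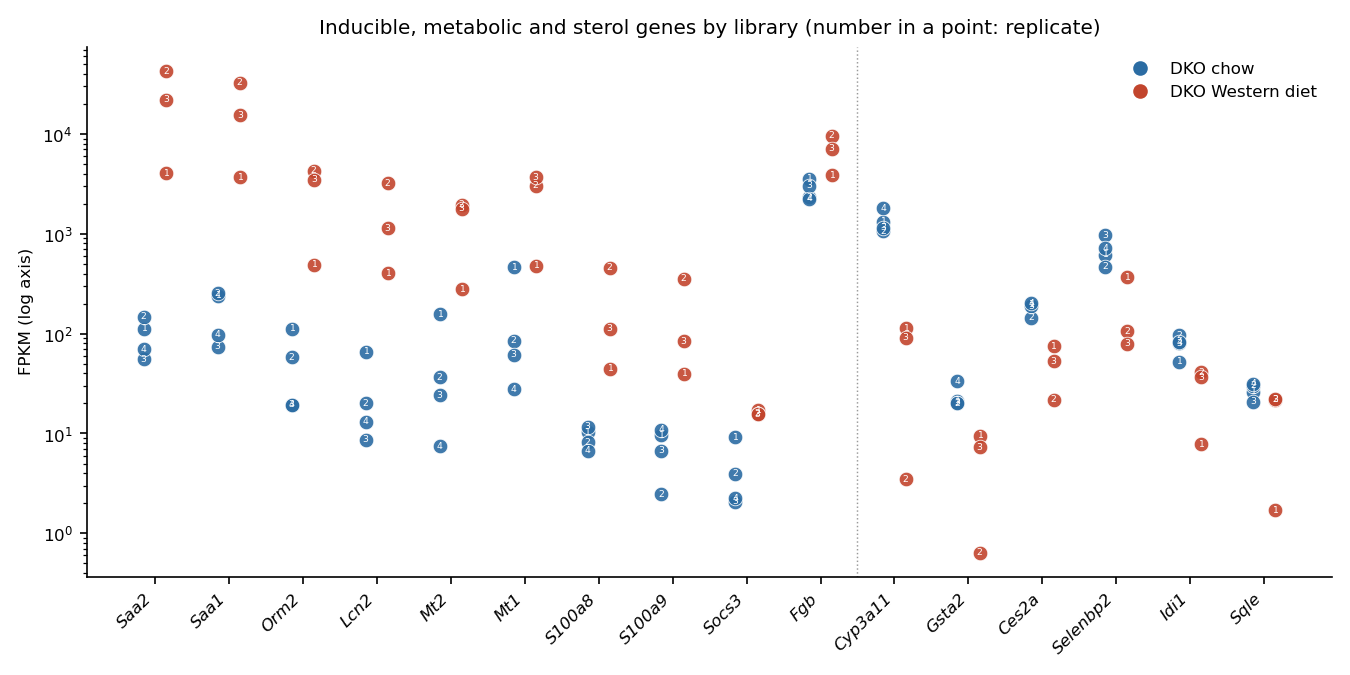
FPKM on a log axis of 16 genes by library, none of them called, with DKO chow in blue, DKO Western diet in red, and the replicate number in each point. Left of the dotted line are acute-phase, neutrophil and cytokine-signalling genes, among which Western diet replicate 1 is the lowest red point in all but Socs3. On the right, replicate 2 is lowest for Cyp3a11, Gsta2 and Ces2a, and replicate 1 for the sterol genes Idi1 and Sqle.

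The promoters of the pair Saa1 and Saa2, which are neighbours on chromosome 7 and are read in opposite directions, are shown because both genes differed together. The 250 bases before each start are given 5′ to 3′ from RefSeq (GRCm38.p6), with capitals at positions where the 2 sequences differ.
Saa1 (chr7:46742981-46743230, minus strand): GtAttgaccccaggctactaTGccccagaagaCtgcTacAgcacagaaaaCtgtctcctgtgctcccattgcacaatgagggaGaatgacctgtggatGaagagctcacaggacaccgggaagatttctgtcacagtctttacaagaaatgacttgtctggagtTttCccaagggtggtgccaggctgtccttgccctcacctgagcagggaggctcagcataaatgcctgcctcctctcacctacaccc
Saa2 (chr7:46751583-46751832, plus strand): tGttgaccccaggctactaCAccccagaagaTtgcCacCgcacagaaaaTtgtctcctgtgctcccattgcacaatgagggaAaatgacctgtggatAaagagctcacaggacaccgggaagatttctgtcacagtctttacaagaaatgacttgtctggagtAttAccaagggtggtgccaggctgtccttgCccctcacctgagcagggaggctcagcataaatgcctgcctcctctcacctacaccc
Of 249 aligned bases 238 were identical (95.6%). Neither window held a match to the C/EBP, STAT or NF-kappaB patterns as they are spelled for the counts below. Both windows hold attgcacaat, in which TTGC and AA lie closer together than in the TTGCNNNAA counted, so that spelling passes over it. The lack of a match therefore does not show that these windows lack a C/EBP site. In the next sequence capitals mark a match to TTGCNNNAA, 1 spelling of a C/EBP pattern that leaves out others, on either strand. In the last they mark TGCGCNC or TGCACNC, cores bound by the metal-responsive factor, also on either strand. The bases after the listed start were found near the beginning of a GENCODE transcript for Saa1, Saa2 and Orm2, but not for Mt2.
Orm2 (chr4:63362199-63362448, plus strand): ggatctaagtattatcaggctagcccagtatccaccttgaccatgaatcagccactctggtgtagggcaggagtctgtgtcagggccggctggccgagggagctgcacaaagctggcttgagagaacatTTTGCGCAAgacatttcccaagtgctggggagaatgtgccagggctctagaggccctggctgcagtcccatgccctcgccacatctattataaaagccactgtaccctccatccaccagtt
Mt2 (chr8:94172368-94172617, plus strand): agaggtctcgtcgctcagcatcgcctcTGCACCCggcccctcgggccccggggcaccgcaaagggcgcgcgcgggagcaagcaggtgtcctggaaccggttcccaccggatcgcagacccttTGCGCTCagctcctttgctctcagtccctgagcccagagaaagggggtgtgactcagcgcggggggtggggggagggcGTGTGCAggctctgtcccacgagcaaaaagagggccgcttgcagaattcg
Over 25 acute-phase genes with an entry, TTGCNNNAA was found in 6 (24%), TTCNNNGAA, a pattern bound by STAT factors, in 7 (28%), and the NF-kappaB motif in 3 (12%). The shares over all 27025 genes were 8.28, 7.18 and 1.40%, so those of the acute-phase genes were higher. TGCGCNC and TGCACNC were found in 2 (8%) and 3 (12%) of the 25 and in 12.6 and 10.2% of all.

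Signalling genes upstream of the acute phase had a smaller median difference. Of 24 tested genes of IL-6 and IL-1 signalling 19 were positive (median 0.24, and 0.36 without chow replicate 4), 6 above and 3 below chow without overlap, and none was called. Socs3, the feedback inhibitor of IL-6 signalling, was at 9.15, 3.96, 2.07 and 2.24 FPKM on chow and at 17.1, 15.8 and 15.6 on Western diet (1.79 ± 0.60, adjusted p = 0.30). Osmr, the receptor of oncostatin M, was at 0.425 to 0.698 FPKM and at 1.36, 3.73 and 4.04 (1.21 ± 0.42, adjusted p = 0.31). Lifr, the receptor of leukaemia inhibitory factor, lay lower on Western diet, at 67.3, 89.2, 80.1 and 67.7 FPKM on chow and at 35.7, 35.0 and 27.7 on Western diet (-1.26 ± 0.23, adjusted p = 0.094; 0.036 in the fit of the 7 libraries alone). Stat3 was at 27.1 to 40.2 FPKM and 40.2 to 56.2, Il1b at 1.00 to 2.61 and 1.51 to 1.98, and Il6 at 0 in all but 1 library of the 7. Litaf, a regulator of inflammatory gene expression in macrophages, was at 24.4 to 32.3 FPKM on chow and 52.5 to 78.3 on Western diet (1.13 ± 0.26, adjusted p = 0.15; 0.042 in the fit of the 7 libraries alone).

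Other liver-made plasma proteins differed in part. Complement had 18 of 24 tested genes positive (median 0.16) and coagulation and fibrinolysis 19 of 28 (median 0.15), 5 and 4 of them above chow without overlap. With equal totals both medians were -0.07, and without Western diet replicate 2 they were 0.03 and 0.03. Cpb2, which slows clot lysis, was at 159 to 216 FPKM on chow and 286 to 710 on Western diet (1.21 ± 0.42, adjusted p = 0.31). The negative acute-phase genes had 10 of 14 negative (median -0.13), and Ttr, a thyroid hormone and retinol carrier, was at 2209 to 3298 FPKM on chow and at 2509, 1505 and 2950 on Western diet. Iron, copper and zinc handling had 17 of 22 positive (median 0.21) with 8 above chow without overlap (median -0.02 with equal totals), and the metalloreductase Steap4 was at 35.0 to 69.0 FPKM and 114 to 334 (2.03 ± 0.65, adjusted p = 0.29). Serpina7, which carries thyroid hormone in plasma, was at 12.8 to 22.6 FPKM on chow and 49.6 to 79.9 on Western diet (1.73 ± 0.36, adjusted p = 0.15), and Dio1, which activates thyroid hormone, at 57.6 to 85.6 and 99.5 to 127 (0.64 ± 0.20, adjusted p = 0.27). The thyroid group as a whole had 5 of 10 tested genes positive (median -0.02).

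Immune genes outside the acute phase gave a mixed picture. Of 19 tested chemokines and receptors 10 were positive (median 0.02), 6 above chow without overlap, and Ccl6 was called. Cxcl1, a neutrophil attractant, was at 9.99 to 27.5 FPKM on chow and 43.0 to 81.8 on Western diet (1.59 ± 0.61, adjusted p = 0.36). Ccl2, the monocyte attractant, overlapped at 0.599 to 4.26 and 0.615 to 4.58, while its receptor Ccr2 was at 0.606 to 0.955 and 1.56 to 5.10 (0.97 ± 0.33, adjusted p = 0.30). Interferon-stimulated genes had 14 of 35 positive (median -0.08) and 3 without overlap, and Ifit1 and Isg15 each overlapped. MHC class II genes had 6 of 7 tested genes positive and none without overlap; their median of 0.15 ran from -0.07 without chow replicate 2 to 0.58 without chow replicate 4. Their highest library was chow replicate 4, with H2-Ab1 at 70.1 FPKM against 15.9 to 20.4 in the other chow libraries and 19.8 to 38.8 on Western diet.

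Markers of neutrophils and macrophages lay above chow and those of endothelium mostly below, each with its own order of libraries. In a piece of liver, more cells of a type and more RNA per cell cannot be told apart. All 11 tested neutrophil markers lay above chow without overlap (median 2.70), 3 of the listed 14 were not tested, and none was called. A marker near 0 on chow, such as Mpo below, could be tested only through its Western diet libraries. The count of markers above chow was therefore partly set by the level filter. S100a8, a subunit of calprotectin, was at 10.3, 8.17, 11.6 and 6.73 FPKM on chow and at 44.3, 455 and 112 on Western diet (3.66 ± 1.22, adjusted p = 0.31), and S100a9 at 2.46 to 10.8 against 39.6, 353 and 83.9 (3.75 ± 1.17, adjusted p = 0.29). Granule genes of immature neutrophils were near 0 on chow, with Mpo, myeloperoxidase, at 0.0313 to 0.247 FPKM, and stood at 1.92, 29.6 and 3.29 on Western diet (2.70 ± 1.04, adjusted p = 0.37). Prtn3, a granule protease, was at 4.996, 0.916, 0.670 and 0.356 FPKM against 11.2, 72.0 and 64.1 (4.05 ± 1.08, adjusted p = 0.23). The summed level of the neutrophil list was 29.4 to 90.0 FPKM on chow and 502, 4226 and 1361 on Western diet. The order of Western diet replicates was that of the acute-phase means, with replicate 2 highest and replicate 1 lowest. Most of each Western diet sum was Lcn2, which is also described with the acute-phase genes above, so the 2 orders are not separate observations. The mean log2 level of the list, which weighs each tested gene alike, was 2.84, 5.64 and 3.64 in Western diet replicates 1, 2 and 3. S100a8 and S100a9 had the same order. What part neutrophil RNA had in the acute-phase differences was not tested; without Western diet replicate 2 and the DKO/hA1 Western diet replicate that was as high in these markers, the median was 1.27 for acute-phase genes, -0.50 for P450 genes and 1.86 for neutrophil markers, and 34 genes were called, 18 higher and 16 lower. Cyp3a11 was among them, and Saa2 was not. The libraries left out were chosen after the data were seen. Western diet replicate 2 was also the lowest library for Cyp3a11, so leaving it out narrows the spread of that gene. The Cyp3a11 call in this fit is therefore no separate evidence of a diet difference.

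Macrophage genes were also higher in most Western diet libraries. Of 16 macrophage and Kupffer cell markers 15 were positive (median 0.85, and 0.55 without chow replicate 2) and 12 lay above chow without overlap. Clec4f, a lectin of resident Kupffer cells, was at 90.1, 39.3, 87.6 and 78.1 FPKM on chow and at 96.3, 101 and 102 on Western diet (0.43 ± 0.35, adjusted p = 0.68). Cd5l, a secreted macrophage protein under LXR control, was at 173, 69.7, 162 and 172 against 375, 243 and 259 (1.01 ± 0.39, adjusted p = 0.36), and Mpeg1, a pore-forming protein, at 29.9 to 38.6 against 51.6 to 80.7 (0.98 ± 0.24, adjusted p = 0.16). Chow replicate 2 was the lowest library for these markers (summed level 338 FPKM against 732 to 785 in the other chow libraries and 1070 to 1412 on Western diet). Sinusoidal and vascular endothelium markers were lowest in the same library (75.3 FPKM against 196 to 219), and over the groups 11 of 12 tested were negative (median -0.37), none without overlap. That median was -0.11 without Western diet replicate 3, -0.25 without chow replicate 4, -0.61 without Western diet replicate 1 and -0.64 without chow replicate 2. Markers of lipid-associated macrophages were all positive in 12 tested genes (median 0.74, and 0.47 without Western diet replicate 1; 4 without overlap). Among them the lipid receptor Trem2 was at 2.53, 0.953, 2.16 and 4.21 FPKM against 10.5, 5.45 and 5.46 (1.21 ± 0.41, adjusted p = 0.31), and Gpnmb at 0.101 to 0.938 against 13.7, 1.38 and 0.509, highest in Western diet replicate 1. Cd207, the lectin langerin, was at 0.206 to 0.318 FPKM on chow and at 18.5, 4.58 and 4.63 on Western diet (2.70 ± 0.44, adjusted p = 0.058), also highest in replicate 1, while Clec9a, which marks conventional dendritic cells, was at 1.236 to 1.496 and 0.524 to 1.76. Lysosome genes had 23 of 25 positive (median 0.37), 17 of them above chow without overlap and none called.

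**Figure D5:**
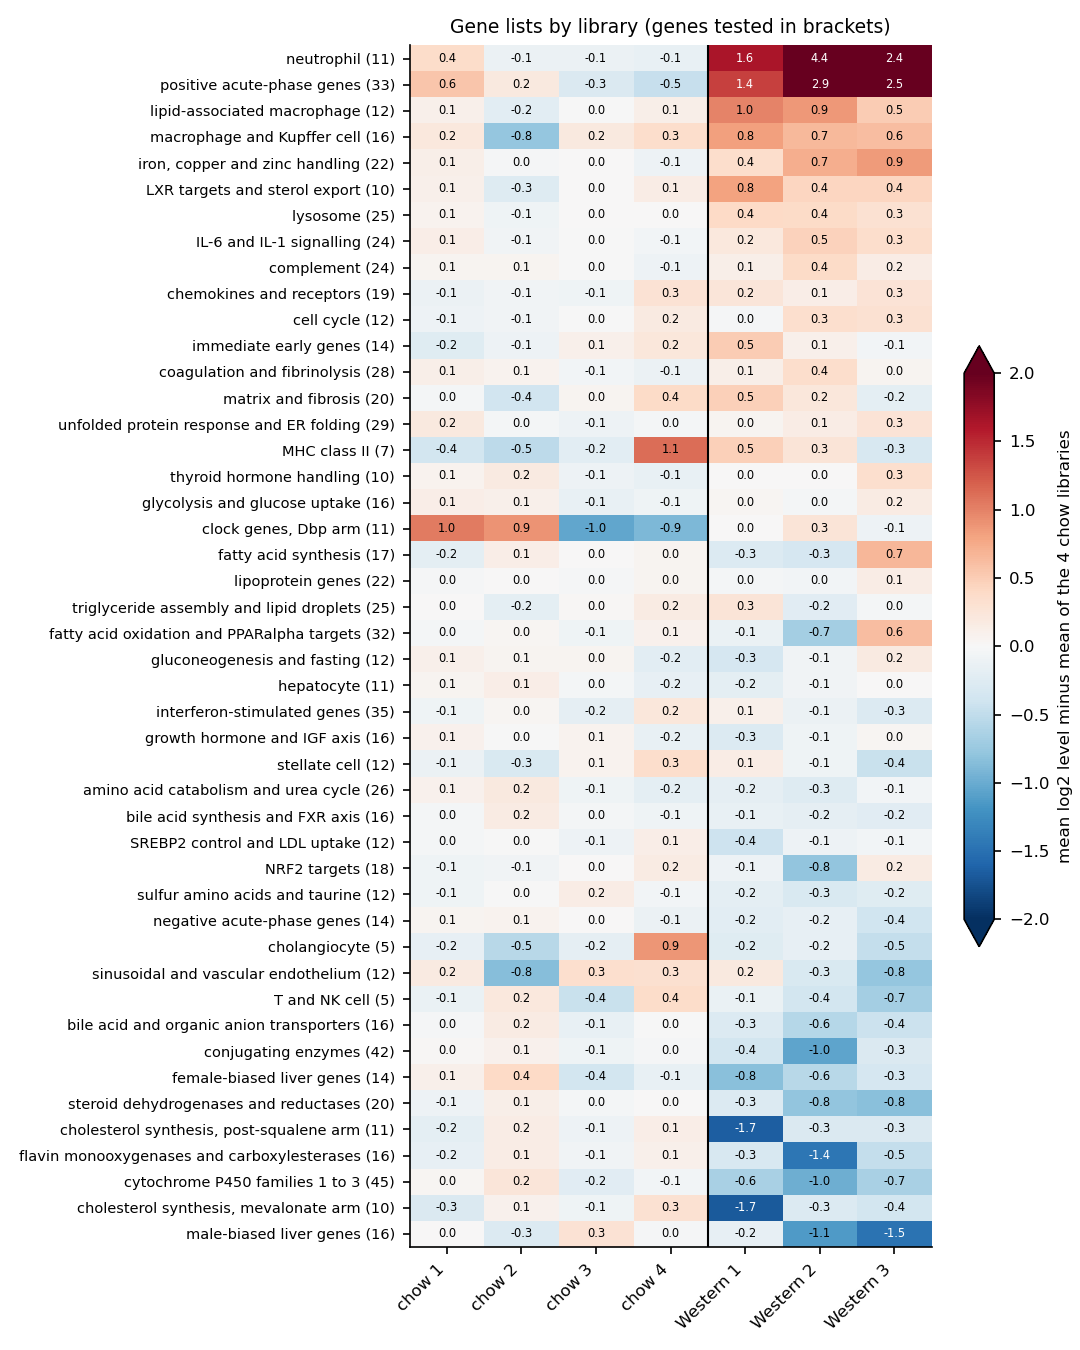
Mean log2 level of gene groups in each of the 7 libraries, minus the mean of the 4 chow libraries, for groups with at least 5 tested genes. Rows are ordered by the Western diet mean, colours run from -2 (blue) to 2 (red) and are capped there, and each cell gives its value. Western diet replicate 1 stands out for cholesterol synthesis, replicate 2 for neutrophil and acute-phase genes, and the chow libraries split into 1 and 2 against 3 and 4 for the clock genes of the Dbp arm.

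Markers of other cell types mostly overlapped between the diets. Stellate cell markers had 3 of 12 positive (median -0.04) and matrix and fibrosis genes 13 of 20 tested (median 0.08), none without overlap. Col1a1, a fibrillar collagen, was at 1.35 to 3.38 FPKM on chow and 1.45 to 4.41 on Western diet. T and NK cell markers had 1 of 5 tested genes positive (median -0.40, and -0.21 without Western diet replicate 3), and 9 were not tested for low levels. Cholangiocyte and intestine markers had their highest mean log2 level in chow replicate 4 (3.37 and 4.45), though the summed FPKM of the cholangiocyte list was highest in Western diet replicate 2 (128 against 69.4 in chow replicate 4). In chow replicate 4, Epcam was at 9.30 FPKM (0.227 to 1.63 in the other chow libraries) and the villus protein Vil1 at 10.4 (0.0482 to 1.17), against 0.352 to 0.559 and at most 0.0764 on Western diet. What part this tissue had in values of chow replicate 4 was not tested. Pancreas, adipose tissue and skeletal muscle each had at most 1 tested gene. The pancreatic gene Cpa1 was at 0 in all 7 libraries, the fat hormone Adipoq at 0 in all but 1, and the muscle gene Ckm at 0.129 FPKM or less.

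The circadian clock differed within chow rather than between diets. Dbp, a clock output that peaks in the late day, was at 53.2 and 50.1 FPKM in chow replicates 1 and 2 and at 0.360 and 1.18 in replicates 3 and 4, and at 21.7, 16.6 and 2.39 on Western diet. Arntl, which peaks opposite to it, was at 0.570 and 0.416 in chow replicates 1 and 2, at 10.5 and 8.37 in 3 and 4, and at 3.31, 1.83 and 2.98 on Western diet. None of 15 tested clock genes was called or without overlap between the diets (medians 0.09 for the Dbp arm and -0.18 for the Arntl arm). No time of day is given in the sources used here, and the part of clock phase in the diet differences was not tested. Genes with the same split within chow included Tef, at 51.7, 50.5, 7.16 and 9.64 FPKM, and Cyp7a1 and Elovl3 above.

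In amino acid metabolism some enzymes lay below chow. Of 26 genes of amino acid catabolism and the urea cycle 17 were negative (median -0.03), 4 without overlap. Cps1, the first urea cycle enzyme, was at 888, 1020, 734 and 664 FPKM on chow and at 579, 420 and 480 on Western diet (-0.81 ± 0.19, adjusted p = 0.15), and Otc, the next step, at 202 to 226 against 204, 111 and 122 (-0.70 ± 0.22, adjusted p = 0.27). Sulfur amino acid genes had 10 of 12 tested genes negative (median -0.16), and Cth, which makes cysteine, was at 178 to 274 FPKM and 102 to 135 (-0.99 ± 0.19, adjusted p = 0.11). In the growth hormone and IGF axis 10 of 16 were negative (median -0.12). Igf1 was at 124 to 145 FPKM on chow and 132 to 145 on Western diet, and Igfbp2, an IGF-binding protein, at 213 to 344 and 80.8 to 210 (-1.11 ± 0.32, adjusted p = 0.24). Agxt2l1, an ethanolamine-phosphate lyase listed as Etnppl in RefSeq, was at 30.9, 43.3, 47.4 and 45.7 FPKM on chow and at 10.8, 2.92 and 9.72 on Western diet (-2.48 ± 0.43, adjusted p = 0.088). The unfolded protein response had 18 of 29 positive (median 0.10), with its chaperone Hspa5 at 255 to 368 FPKM and 269 to 398. Immediate early genes had 9 of 14 tested genes positive (median 0.07) and cell cycle genes 8 of 12 (median 0.23), with none called in these groups.

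The same diet comparison with human APOA1 rests on other libraries, 2 on chow and 3 on Western diet, so its values can be set beside those above. Ccl6 rose there as well, from 5.55 and 2.98 FPKM to 27.4, 38.1 and 46.1 (log2 difference 2.87 ± 0.23, adjusted p = 8.6e-05), and Gpr110 fell from 6.63 and 5.70 to 0.530, 0.384 and 0.667 (-2.24 ± 0.13, adjusted p = 4.2e-06). Ugt1a9 (-2.21 ± 0.26, adjusted p = 0.0044), Raet1e (-2.37 ± 0.28, adjusted p = 0.0047) and Extl1 (1.43 ± 0.18, adjusted p = 0.0053) were also called there, and Cldn2, Uap1l1, Slco1a4, Hsd17b6, Cyp3a44 and Cyp3a16 had the same sign without passing. Wfdc2 was at 8.82 and 8.40 FPKM on chow and 12.7, 6.11 and 14.2 on Western diet with the transgene (0.24 ± 0.26, adjusted p = 0.77), and the difference between the diet effects was 1.46 ± 0.33 (adjusted p = 0.78). For Cyp3a11 the differences were -5.25 without and -2.88 with the transgene (interaction -2.37 ± 1.66, adjusted p = 0.97), and for Saa2 7.36 and 3.5 (3.86 ± 2.32, adjusted p = 0.97). The group medians were -0.82 and -1.80 for the mevalonate arm, 1.66 and 1.02 for acute-phase genes, -0.74 and -0.17 for P450 genes, and 0.85 and 2.00 for macrophage markers; whether these medians differ was not tested. Over all 11221 genes the interaction was called for 4 (0.0356%), at an unadjusted p below 0.05 for 525 (4.68%), and none of the genes called for the diet effect without the transgene was among the 4. The interaction count was 2 without DKO chow replicate 3, 2 without DKO Western diet replicate 2, and 10 without DKO/hA1 Western diet replicate 3. Besides a small RNA gene the 4 were Trf, Rpl35 and Mup5, whose values turn on libraries with the transgene. Trf, transferrin, was at 5622 to 6858 FPKM on DKO chow and 6734 to 18730 on DKO Western diet. It was listed at 0 in all 3 DKO/hA1 Western diet libraries, which, like the zeros of Alb, cannot be read as a level. Rpl35 was at 1.296 and 0.284 FPKM in DKO/hA1 chow against 126 to 191 in the other groups, and Mup5, a major urinary protein, at 2.70 and 2.84 against 329.6 to 3048.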

How the data were processed

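Liver RNA was sequenced on the Illumina GA IIx, and RNA with an integrity number under 7 was discarded, per the labels' protocols. The deposited values are FPKM per gene for 12 libraries. TopHat 1.3.2, Bowtie 0.12.8, SAMtools 0.1.19, Cuffdiff and the mm10 build are named in the submitters' processing notes, without their order or settings. The authors' FPKM carry no fragment counts, so depth is unknown and no count model was used. All columns of the table belonged to a sample.

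Library scaling factors came from trimmed log ratios without weights (0.3 of the log ratios and 0.05 of the levels trimmed), 1 was added to the scaled FPKM, and log2 values were fitted in limma 3.58.1 (R 4.3.3) with the 4 groups of genotype and diet over 12 libraries. Tests were two-sided moderated tests with a mean-variance trend, robust estimation and Benjamini-Hochberg adjustment over 11221 genes. Differences are Western diet minus chow with SE. Overlap between groups was read on scaled FPKM; printed levels are the deposited FPKM. The test was tried on simulated data, where it called 10 of 11021 genes without a difference. Of genes given a log2 difference of 1 or 2 in either direction, it called 74 to 96%. The noise was drawn independently for each gene and library, so shifts that many genes of a library share were not simulated. These shares therefore do not carry over to the real libraries.

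Of 23284 symbols, 23040 matched RefSeq names. Genes named are Apoa1 and Apoe, the called genes, the 10 largest uncalled differences without overlap in each direction with a mean of at least 5 FPKM in a group, the 10 smallest p in the 7-library fit, up to 6 members with the largest differences and up to 3 defining members of each gene list, and up to 5 interaction genes. Small RNA genes are not named, and some genes that meet these rules are not reported here. The comparison and the gene lists were chosen with earlier results of these data known. Alternatives were 0.1 in place of 1, other scalings and filters, a plain variance fit, the replicate block, the 7 libraries alone, and leaving out each library. Python 3.11.15, numpy 2.4.6, pandas 2.3.3 and matplotlib 3.10.9 were used.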

Additional observations from a re-analysis of the deposited data

Results flagged for a closer look

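Among 41 results tested for a gap, 1 chow library lay apart from the other 3 in 4 cases by Dixon's criterion at the 95% level, which chance meets in about 1 of 20 groups. Agxt2l1 was at 30.88 FPKM in DKO chow replicate 1 and at 43.27 to 47.42 in the others. In DKO chow replicate 4, Gsta2 was at 33.2 FPKM (20.05 to 21.38 in the others) and Trf at 5622 (6382 to 6858). The fourth case, Rpl31-ps12 at 0.1879 FPKM in the same library, carries no information, since any value above 0 meets the criterion when the other 3 are at 0.

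The diet difference without human APOA1 minus that with it passed limma's adjusted threshold for 3 named genes. It was 13.91 for Trf (adjusted p = 2e-08), -6.374 for Rpl35 (adjusted p = 4.4e-07) and -8.525 for Mup5 (adjusted p = 0.019). Trf was listed at 0 in all 3 DKO/hA1 Western diet libraries, and Rpl35 and Mup5 were low in both DKO/hA1 chow libraries, so all 3 turn on libraries with the transgene. Like the zeros of Alb, those of Trf cannot be read as levels, so its difference is not read as an effect of the transgene. Whether the low Rpl35 and Mup5 values are levels was not tested.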

How the results depend on the processing

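The test as reported called 15 genes. Leaving out each of the 12 libraries gave 10 to 66 calls, and 2 to 10 for the interaction (4 as reported). Without the 2 libraries highest in neutrophil markers, an alternative chosen after seeing the data, 34 genes were called, and without small RNA genes, also chosen afterwards, 14. Equal totals gave 18, no level filter 18, a stricter filter 10, and the 7 libraries alone 19, which can give no interaction; the cause of these moves was not tested. With the replicate block 15 genes were called, and 5 for the interaction. Deviations of same-numbered chow and Western diet libraries correlated at -0.151, -0.0053 and -0.0522, and those of differently numbered ones at -0.0852 to 0.1277. These values gave no sign of a pairing by number. With so few pairs, each centred within its own group, they cannot exclude one. None of the named called genes reversed in any of the 23 alternatives that tested it. Of 309 uncalled named genes 62 changed sign and 28 were called in some alternative, and of 51 list medians 23 changed sign. Without fragment counts, precision at low FPKM cannot be given.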
